A study of Mus musculus with 42 samples.

Results

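The genes described here are 35 members of the machinery that closes a macrophage around a particle: the kinases beneath its uptake receptors, the small GTPases and their exchange factors, the Arp2/3 complex, actin itself and the proteins that turn filaments over or tie them to the membrane. They were listed by name, with no threshold on a measured value other than the mean below. All 35 were matched by Ensembl identifier among the 47643 genes of the deposited tables, and all 35 had a mean of at least 10 normalized reads in the young table, in the old table and over both. The cells were macrophages of C57BL/6 mice, young (2 to 3 months) or old (18 to 20 months), taken at zeitgeber time (ZT, hours on the light cycle) 0, 4, 8, 12, 16, 20 and 24. Every combination of age and time had 3 libraries, which makes 14 groups and 42 libraries. The labels give no allele, agent or treatment for any group and no tissue of origin, and do not say whether a group's libraries came from different mice. The p-values therefore reflect only how these samples spread, which may be technical. Young and old samples were deposited as separate tables, and any harvest or sequencing batch that coincides with age cannot be told apart from it.

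When an Fc receptor binds an opsonized particle, Src-family kinases such as Lyn and Fgr phosphorylate its signalling motif, Syk docks there and activates the exchange factor Vav1 and the phospholipase Plcg2. Vav1, and on the apoptotic-cell route Elmo1 with Dock1 or Dock2, load Rac with GTP, while Cdc42 opens the activators Was and Wasl, which switch on the Arp2/3 complex. That complex nucleates branched actin filaments that push the membrane around the particle. Profilin, thymosin and cofilin keep actin subunits in supply, and gelsolin, Capg, coronin and plastin sever, cap, debranch or bundle the filaments.

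Recovered reads in genes were between 7433159 and 13574542 per library in young cells and between 4864402 and 15587030 in old cells. The 35 genes together took 3.09% to 3.51% of the reads of a young library and 2.62% to 3.44% of those of an old one. All 10 macrophage markers looked for, such as Adgre1, Csf1r and Lyz2, and all 8 markers of resident peritoneal macrophages, such as Gata6 and Timd4, had a mean above 10. These lists moved with age as well. Among the macrophage markers 3 were lower in old cells (Lyz2 at log2 -0.25, C1qa at -0.23 and Cd68 at -0.18) and 1 was higher (Cd14 at 0.18), and the median of their sum was 314373 rescaled reads in young and 277121 in old libraries. The resident markers had 3 higher and 2 lower, and 6 markers of monocyte-derived macrophages 1 higher (Plac8) and 3 lower (Ccr2 at -0.92, Cd226 at -0.75 and Mrc1 at -0.73), all by limma at an adjusted p under 0.05. The falls of macrophage markers were of the size of those of the Arp2/3 genes below, and their part in the members' differences was not tested. All 10 B cell markers had a mean above 10 as well, and all 10 were higher in old cells by limma at an adjusted p under 0.05. Their summed level was 10169 to 18960 rescaled reads per library in young cells (median 14034) and 11169 to 42317 in old cells (median 21470), so the ranges overlapped. It was highest in the old libraries of ZT8, at 32444 ± 8621 (SD, n = 3), and the 3 libraries of that group all stood above every young library. The same held for the 3 old libraries of ZT20, at 26006 ± 5722 (SD, n = 3; lowest 20421). The summed T cell markers were 124 to 419 rescaled reads in young and 158 to 1810 in old libraries. Since these are bulk samples, fewer cells of a type and less RNA per cell cannot be told apart.

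**Figure D1:**
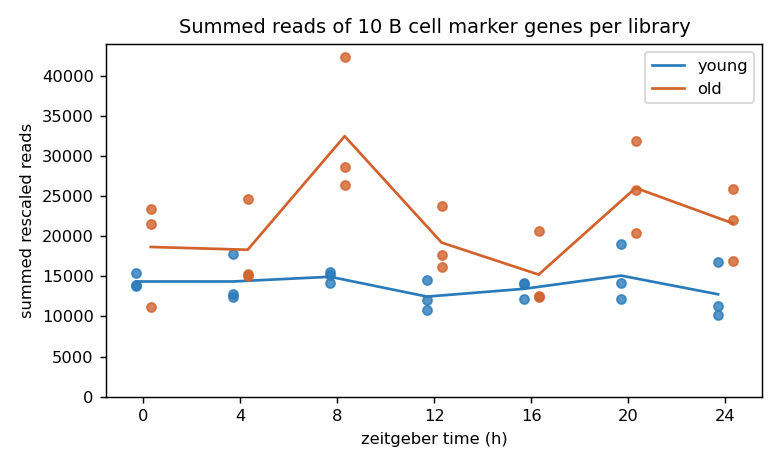
Summed rescaled reads of 10 B cell marker genes in each library (points) against zeitgeber time in hours, with lines through the group means of the young and old samples. The old libraries of ZT8 have the highest mean and lie between 26402 and 42317. Those of ZT20 lie between 20421 and 31857, while the highest young library is at 18960.

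The first comparison asked which of the 35 messages have another daily mean in old than in young cells, on reads of all 42 libraries rescaled together. The changes were small. Messages of 7 members were lower in old macrophages: gelsolin (Gsn), Dock1, Rac1, the activator Was and the Arp2/3 subunits Arpc1b, Arpc4 and Arpc5. Messages of 4 were higher: the kinases Syk and Fgr, Rac2 and ezrin (Ezr). The fall of Gsn was by 0.53 on the log2 scale, to 0.691-fold of the young level, and the called changes of the other 10 genes lay between 0.797-fold (Dock1) and 1.19-fold (Syk). Limma with Benjamini-Hochberg adjustment over 12109 genes called 11 of the 35, or 31.4%, beside 23.7% of all genes tested. Over all genes 12% were called higher and 11.7% lower. The median log2 difference was -0.03 over the members and 0.00 over all genes. Regardless of sign, the median difference was 0.10 over the members and 0.13 over all genes, so the members did not change more. The members varied less between libraries, as given at the end, so smaller changes could be called. How far that raised the share of calls was not tested. The plot of log2 differences by role shows the members side by side.

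**Figure D2:**
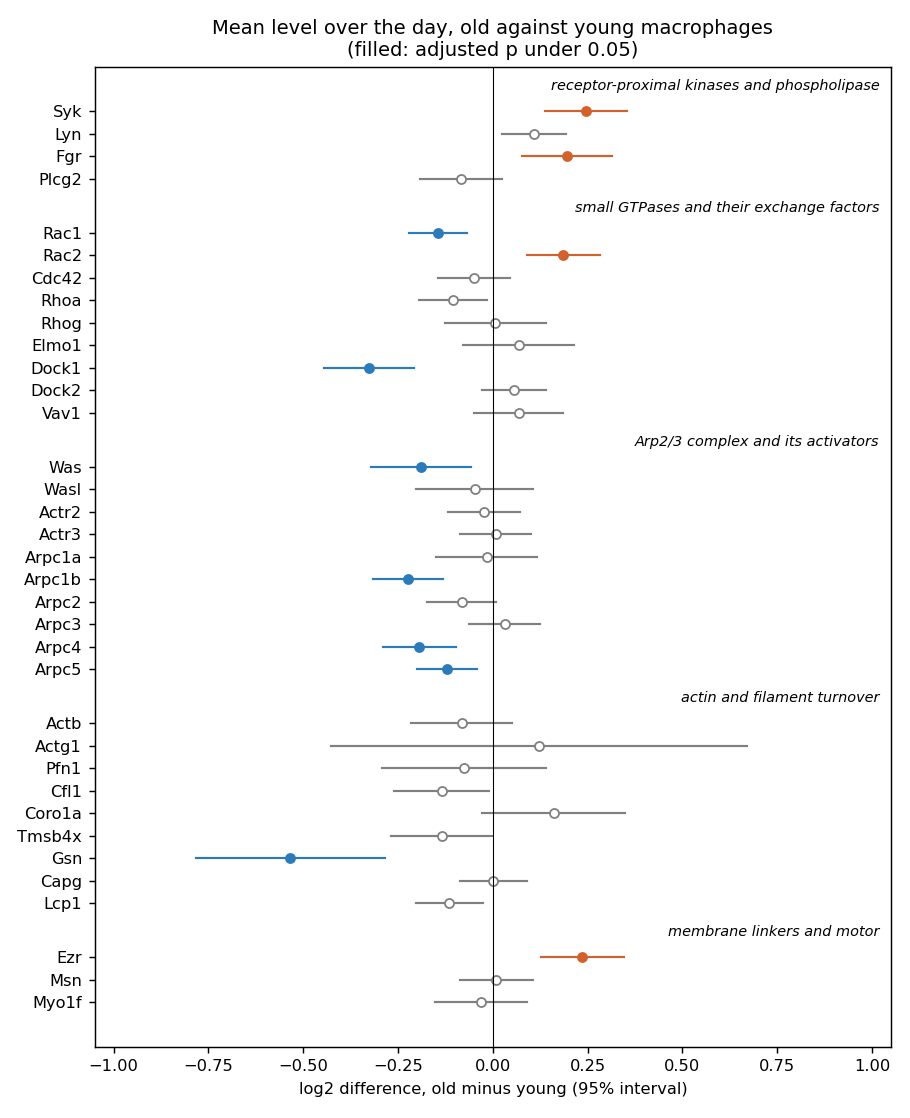
Difference in mean level over the day, old minus young, on the log2(rescaled reads + 1) scale for each of the 35 members, grouped by role, with a 95% interval by the normal approximation from limma's SE (n = 21 libraries per age). Filled points passed an adjusted p of 0.05, with 7 on the lower side led by Gsn and 4 on the higher side led by Syk.

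Of the 4 receptor-proximal genes 2 rose and 0 fell by limma, beside 12% and 11.7% of all genes tested. Syk, the kinase that docks on phosphorylated receptor motifs (ENSMUSG00000021457, chromosome 13, 52583173 to 52648792, plus strand, build GRCm38), ran from 1782 through a median of 2482 to 3033 rescaled reads in the 21 young libraries. In the 21 old libraries it ran from 2148 through 2957 to 4256. The ranges overlapped, but 10 old libraries stood above the highest young one and 17 above the young median. Its log2 difference was 0.25 ± 0.06 (SE; limma, adjusted p = 0.00073), higher in old cells at 7 of 7 times and widest at ZT8 (0.48), the time at which the B cell markers were highest. Fgr, a Src-family kinase of myeloid cells (ENSMUSG00000028874, chromosome 4, 132974095 to 133001910, plus strand), ran from 470 through 564 to 799 in young and from 467 through 628 to 877 rescaled reads in old libraries. Its rise was 0.20 ± 0.06 (SE; limma, adjusted p = 0.0144) with 18 of 21 old libraries above the young median, and its difference at ZT8 was -0.14. Without the ZT0 libraries Fgr missed the threshold (log2 0.16, limma adjusted p = 0.0759).

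Lyn, the most abundant of these kinases, was at 4879 ± 405 (SD, n = 21) in young and 5254 ± 395 (SD, n = 21) rescaled reads in old cells. It missed the threshold (log2 0.11 ± 0.04, SE; limma, adjusted p = 0.0629), its estimate was positive at 7 of 7 times, and DESeq2 on the recovered reads called it (adjusted p = 0.0469). The adjusted p of Lyn went under 0.05, to between 0.0195 and 0.0499, without young ZT0 replicate 1 or 3, young ZT4 replicate 2, young ZT12 replicate 2, old ZT12 replicate 1 or old ZT20 replicate 2. The phospholipase gene Plcg2 was at 660 ± 70.6 (SD, n = 21) in young and 624 ± 79.5 (SD, n = 21) in old libraries, with a log2 difference of -0.08 and a 95% interval of -0.19 to 0.02. This and the other intervals are normal approximations from limma's SE, slightly narrower than limma's own test implies.

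The 2 Rac genes moved in opposite directions. Rac1, the widely expressed form (ENSMUSG00000001847, chromosome 5, 143503634 to 143528036, minus strand), ran from 6550 through a median of 7437 to 8268 rescaled reads in young and from 5630 through 6809 to 7545 in old libraries. Of the old libraries 19 lay below the young median and 7 below the lowest young library. The log2 difference of Rac1 was -0.14 ± 0.04 (SE; limma, adjusted p = 0.00517), lower in old cells at 7 of 7 times. Rac2, the form of blood cells (ENSMUSG00000033220, chromosome 15, 78559167 to 78572783, minus strand), ran from 1607 through 2080 to 2343 in young and from 1861 through 2333 to 3173 in old libraries. It was 0.19 ± 0.05 (SE; limma, adjusted p = 0.00404) higher in old cells, with 10 old libraries above every young one and the widest difference again at ZT8 (0.35).

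Among the exchange factors the call fell on Dock1 alone. Dock1 acts with Elmo1 on Rac in apoptotic cell uptake (ENSMUSG00000058325, chromosome 7, 134670654 to 135173639, plus strand). It ran from 330 through a median of 439 to 522 rescaled reads in young and from 239 through 343 to 475 in old libraries, with 8 old libraries below every young one. The log2 difference was -0.33 ± 0.06 (SE; limma, adjusted p = 6.07e-05). The age groups of Dock1 were alike at ZT0, at 417 ± 65.6 and 416 ± 33.2 (SD, n = 3 each). At ZT8, the time of its widest difference, they were at 418 ± 45.6 in young and 272 ± 30.5 in old cells, without overlap. How many genes separate in this way at ZT8 was not counted. Its partner Elmo1 (491 ± 85.8 and 514 ± 88.0, SD, n = 21 each), Dock2, the Dock gene of leukocytes (2280 ± 197 and 2370 ± 214), and Vav1 (565 ± 79.9 and 591 ± 67.8) did not pass the test. Their 95% intervals on the log2 scale were -0.08 to 0.21, -0.03 to 0.14 and -0.05 to 0.19.

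Of the other GTPases, Cdc42, which drives filopodia and opens Was, had 5585 ± 298 rescaled reads in young and 5436 ± 747 in old cells (SD, n = 21 each). Rhog, which acts upstream of Elmo1, had 464 ± 62.4 and 468 ± 73.4. Rhoa, which controls contraction through its kinases, was at 12439 ± 1031 and 11607 ± 1347. Rhoa missed the threshold at log2 -0.10 ± 0.05 (SE; limma, adjusted p = 0.0937) and went under it without old ZT0 replicate 2 (adjusted p = 0.0369), with scaling to the total (0.0335) and without the 3 libraries farthest from their groups (0.0165).

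**Figure D3:**
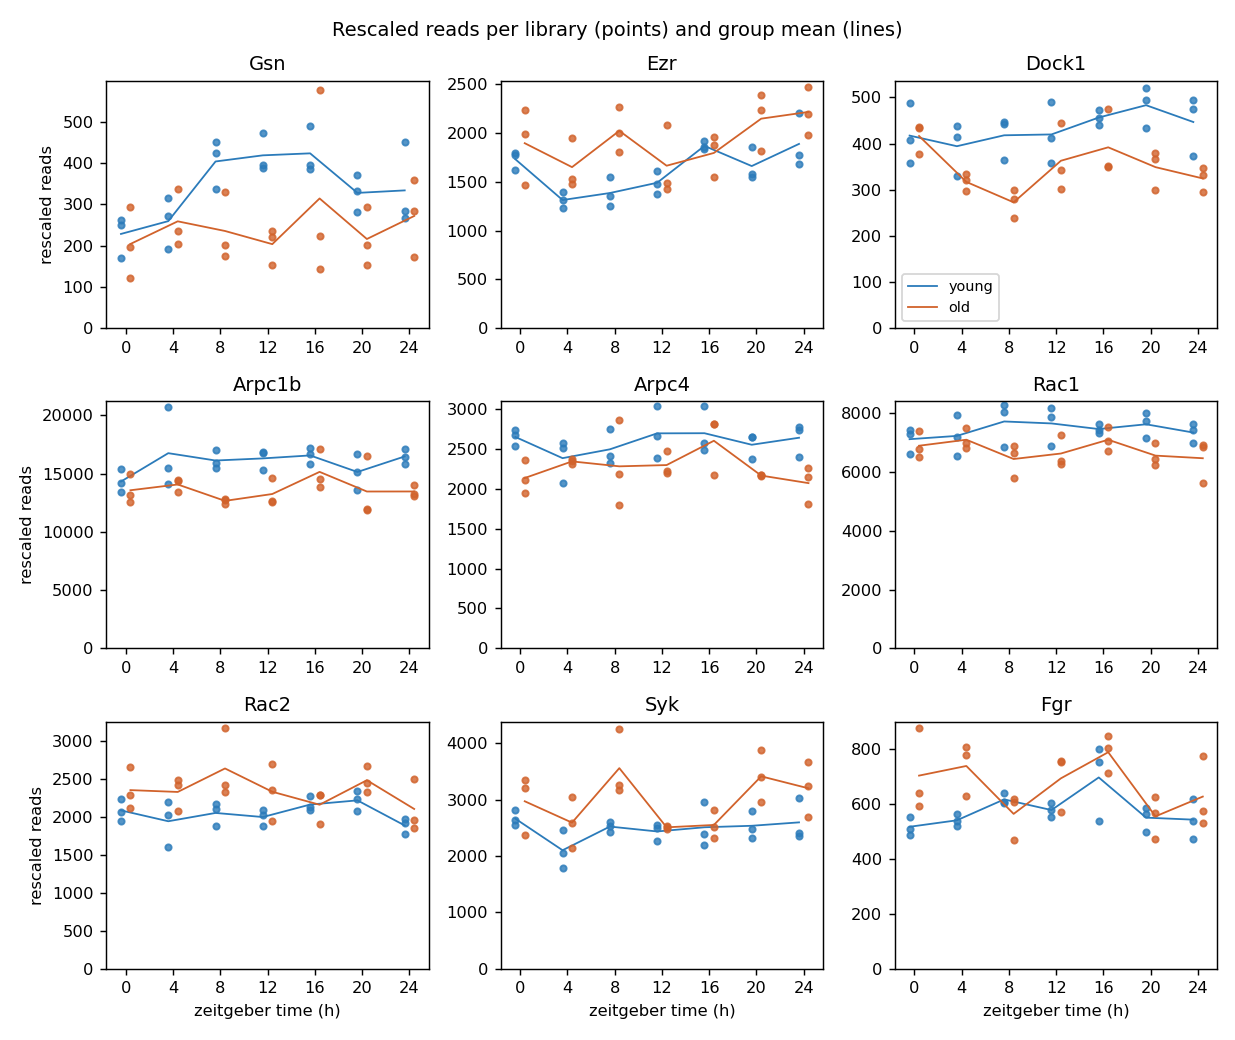
Rescaled reads of 9 called members in every library (points) against zeitgeber time in hours, with lines through the means of the 3 young and the 3 old libraries at each time; each vertical axis starts at 0. Young and old points of Arpc1b, Rac1 and Dock1 overlap at some times while their log2 estimates are negative at 7, 7 and 6 of 7 times, and the young Gsn means rise from 228 at ZT0 to 424 at ZT16.

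In the Arp2/3 complex and its activators 4 of 10 genes were lower in old cells and 0 were higher by limma. Over all genes tested 11.7% were lower and 12% higher. The median log2 difference of these 10 genes was -0.06. Arpc1b, the blood cell form of the complex's propeller subunit (ENSMUSG00000029622, chromosome 5, 145114215 to 145130705, plus strand), is one of its abundant messages here, together with Arpc2. It ran from 13429 through a median of 15867 to 20749 rescaled reads in young and from 11884 through 13239 to 17082 in old libraries, and 12 of the 21 old libraries were below every young one. The highest young value was that of ZT4 replicate 3 alone, the next being 17172. Its log2 difference of -0.22 ± 0.05 (SE; limma, adjusted p = 0.000342) was negative at 7 of 7 times. The neighbouring gene Arpc1a (chromosome 5, 145083830 to 145108761), the form of most other tissues, had 1042 ± 153 in young and 1035 ± 186 in old cells (SD, n = 21 each). The log2 difference of Arpc1a was -0.02, with an interval of -0.15 to 0.12.

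The subunit gene Arpc4, part of the core on which the complex is built (ENSMUSG00000079426, chromosome 6, 113378115 to 113390448, plus strand), ran from 2072 through a median of 2575 to 3034 rescaled reads in young and from 1793 through 2203 to 2870 in old libraries. It was lower by -0.19 ± 0.05 (SE; limma, adjusted p = 0.0026), again at 7 of 7 times, with 18 of 21 old libraries below the young median. Arpc5 (ENSMUSG00000008475, chromosome 1, 152766542 to 152775597, plus strand), the smallest subunit's gene, went from 3211 ± 218 to 2962 ± 309 (SD, n = 21 each), a log2 difference of -0.12 ± 0.04 (SE; limma, adjusted p = 0.0262) with the same sign at 7 of 7 times. The Arpc5 call was lost without old ZT4 replicate 3 (0.0503), without old ZT24 replicate 1 (0.0508) and without the ZT8 libraries (0.0577).

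The other subunits did not pass the test. Actr2 and Actr3, the actin-like pair that starts the new filament, had 2633 ± 278 and 1934 ± 169 rescaled reads in young and 2588 ± 252 and 1948 ± 218 in old cells (SD, n = 21 each). Arpc2 was at 14575 ± 1324 and 13794 ± 1476 and Arpc3 at 4660 ± 398 and 4779 ± 569. The interval of the log2 difference was -0.12 to 0.07 for Actr2, -0.09 to 0.10 for Actr3, -0.17 to 0.01 for Arpc2 and -0.06 to 0.13 for Arpc3. In all, 3 of the 8 subunit genes were called.

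Was encodes the Wiskott-Aldrich protein that Cdc42 opens in blood cells (ENSMUSG00000031165, chromosome X, 8081453 to 8090498, minus strand). It ran from 591 through a median of 798 to 1112 rescaled reads in young and from 451 through 711 to 932 in old libraries, 19 of which were below the young median. Its log2 difference was -0.19 ± 0.07 (SE; limma, adjusted p = 0.0353), lower at 6 of 7 times and higher at ZT4 (0.19). This call was the least firm: the adjusted p of Was was 0.0517 to 0.0666 without young ZT0 replicate 1, ZT4 replicate 2, ZT8 replicate 2, ZT12 replicate 1, ZT16 replicate 2, ZT20 replicate 1, ZT24 replicate 2 or ZT24 replicate 3. The same range holds without old ZT0 replicate 2, ZT4 replicate 1, ZT12 replicate 3, ZT16 replicate 1, ZT20 replicate 2 or ZT24 replicate 2. It was 0.0698 without the ZT24 libraries, 0.0751 without those of ZT8 and 0.0724 with no filter on low values. Its widely expressed relative Wasl had 239 ± 44.8 and 230 ± 36.4 rescaled reads (SD, n = 21 each), with a log2 interval of -0.20 to 0.11.

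The windows upstream of the annotated starts of Arpc1b, Arpc4 and Arpc5 are shown because these are the 3 subunit genes that were lower in old cells. Each run is the 250 bases before the RefSeq start, 5′ to 3′ on the gene's strand, from build GRCm38.p6: chr5:145114006-145114255 (plus) for Arpc1b, chr6:113377863-113378112 (plus) for Arpc4 and chr1:152766292-152766541 (plus) for Arpc5. Capitals mark matches on either strand to 6 motifs: the E-box CACGTG bound by clock activators, the motif AGGTCA of ROR and REV-ERB, the ETS site GAGGAA, the GC box GGGCGG of Sp1-like factors, the D-box TTATGTAA, and the CArG box of SRF, a regulator of actin genes.
Arpc1b: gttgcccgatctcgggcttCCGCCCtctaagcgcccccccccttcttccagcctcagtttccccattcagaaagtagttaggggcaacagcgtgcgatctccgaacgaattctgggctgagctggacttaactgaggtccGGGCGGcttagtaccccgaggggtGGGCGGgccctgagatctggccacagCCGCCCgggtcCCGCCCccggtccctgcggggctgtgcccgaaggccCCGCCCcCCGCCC
Arpc4: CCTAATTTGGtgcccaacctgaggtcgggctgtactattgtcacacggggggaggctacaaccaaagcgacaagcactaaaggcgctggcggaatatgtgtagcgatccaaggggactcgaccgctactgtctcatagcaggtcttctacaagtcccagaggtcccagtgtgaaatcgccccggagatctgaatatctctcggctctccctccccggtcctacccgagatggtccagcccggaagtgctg
Arpc5: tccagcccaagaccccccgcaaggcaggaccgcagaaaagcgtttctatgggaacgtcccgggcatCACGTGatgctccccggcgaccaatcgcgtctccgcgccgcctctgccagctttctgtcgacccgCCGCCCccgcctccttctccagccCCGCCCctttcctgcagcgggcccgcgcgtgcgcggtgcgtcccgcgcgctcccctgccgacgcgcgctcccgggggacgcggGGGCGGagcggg
The Arpc1b window held 7 GC boxes, that of Arpc5 held an E-box and 3 GC boxes, and that of Arpc4 held a CArG box at its far end. RefSeq windows were matched for 31 of the 35 members, counting every start of a gene. A GC box was in 22 of these 31 genes and in 32.7% of all 32851 windows of that length. An E-box was in 4 genes (Actg1, Arpc5, Msn and Plcg2; 6.02% of all windows), and a CArG box in 2 (Actg1 and Arpc4; 1.47%). The AGGTCA motif was in 6 genes (14% of windows), the ETS site in 7 (23.3%) and the D-box in 1, Lcp1 (0.819%). Several members have more than 1 start, and a gene counted if any of its windows matched. The percentages are of single windows, so they are not a like background for the gene counts. A match in letters is a description of the window alone.

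Of the genes for actin and filament turnover, limma called 1 of 9 for level, beside 23.7% of all genes tested. That gene was Gsn, which encodes gelsolin, a protein that severs and caps filaments in response to calcium (ENSMUSG00000026879, chromosome 2, 35256380 to 35307892, plus strand). It ran from 171 through a median of 337 to 490 rescaled reads in young and from 121 through 222 to 577 in old libraries. The young range lay inside the old one, since the highest of all 42 libraries was old ZT16 replicate 1 at 577, but 18 old libraries lay below the young median. The log2 difference was -0.53 ± 0.13 (SE; limma, adjusted p = 0.00148), negative at 7 of 7 times and between -0.00 at ZT4 and -1.06 at ZT12.

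The actin genes themselves did not pass the test. Actb, the most abundant of the 35, was at 132068 ± 9242 rescaled reads in young and 125814 ± 18528 in old cells (SD, n = 21 each), with a log2 difference of -0.08 and a 95% interval of -0.22 to 0.05. Actg1, which encodes the other cytoplasmic actin, was counted at 4.07 to 29.6 rescaled reads in young and 1.48 to 43.7 in old libraries. These libraries read transcript ends, so levels of different genes can be compared without a length correction. How reads shared with the many close copies of actin genes were counted is not stated in the sources used here, so the level of Actg1 is uncertain. The same holds for Tmsb4x, Pfn1 and Cfl1, which also have close copies. At that depth the interval of the Actg1 difference ran from -0.43 to 0.67.

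Thymosin beta 4 (Tmsb4x), which holds actin subunits in reserve, was at 47225 ± 9710 in young and 42833 ± 7092 rescaled reads in old cells (SD, n = 21 each; log2 -0.14 ± 0.07, SE; limma, adjusted p = 0.157). Profilin (Pfn1), which feeds subunits to growing ends, had 1944 ± 413 and 1870 ± 447, and cofilin (Cfl1), which severs old filaments, 1423 ± 241 and 1293 ± 204. Cfl1 was negative at 7 of 7 times and missed the threshold (log2 -0.13, limma adjusted p = 0.128). The coronin gene Coro1a had 612 ± 145 and 693 ± 197 (log2 interval -0.03 to 0.35), and its widest positive difference fell at ZT8 (0.58). The capping protein gene Capg had 2664 ± 206 and 2685 ± 384, with a log2 difference of 0.00 and an interval of -0.09 to 0.09. Lcp1, the leukocyte plastin that bundles filaments, had 2080 ± 174 and 1925 ± 210 and just missed the threshold (log2 -0.12 ± 0.05, SE; limma, adjusted p = 0.0591). The adjusted p of Lcp1 went to 0.0256 to 0.0474 without young ZT0 replicate 2, ZT4 replicate 3 or ZT8 replicate 2, or old ZT4 replicate 2, ZT8 replicate 1, ZT16 replicate 1, ZT20 replicate 3 or ZT24 replicate 3, and it was 0.0288 with scaling to the total and 0.0463 with TMM scaling.

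Of the 3 genes that tie actin to the membrane or pull on it, ezrin rose. Ezr (ENSMUSG00000052397, chromosome 17, 6738041 to 6782784, minus strand) ran from 1231 through a median of 1615 to 2208 rescaled reads in young and from 1422 through 1959 to 2473 in old libraries, 5 of which stood above every young one. It was 0.24 ± 0.06 (SE; limma, adjusted p = 0.00128) higher on the log2 scale, at 6 of 7 times and most at ZT8 (0.55). Moesin (Msn), the more abundant linker of the same family, had 10858 ± 1190 in young and 10949 ± 1375 in old cells (SD, n = 21 each; log2 interval -0.09 to 0.11). The motor gene Myo1f had 903 ± 88.0 and 901 ± 207 (log2 interval -0.15 to 0.09).

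The summed B cell markers were highest in the old libraries of ZT8, and replicate 1 of that group lay farthest from its group of all libraries. ZT8 was the time of the widest difference between ages for 13 of the 35 members, and the share over all genes was not counted. This difference was positive for 4, Syk, Rac2, Ezr and Coro1a, and negative for the other 9, among them Dock1, Pfn1, Arpc1b and Rac1. Without the ZT8 libraries, an alternative added after the data were seen, Syk (log2 0.21; limma, adjusted p = 0.00998), Rac2 (0.16; 0.0236) and Ezr (0.19; 0.0246) still passed. That fit kept the old ZT20 libraries, whose summed B cell markers also all stood above every young library. At ZT20 the log2 differences of Syk, Ezr and Rac2 were 0.42, 0.37 and 0.16. Of 8 mast cell markers 1 was higher in old cells (Hdc, log2 0.86) and 1 lower (Tpsb2, -0.47), by limma at an adjusted p under 0.05. Their mean level may therefore not follow mast cell content. The comparison was also made with 3 covariates, the mean log2 marker levels of B, T and mast cells. With them 3 of the 35 members passed (8.57%), all among the 11 called before, against 10.6% of all genes tested: Gsn at log2 -0.80 ± 0.18 (SE; limma, adjusted p = 0.00187), Dock1 at -0.28 ± 0.10 (adjusted p = 0.0492) and Fgr at 0.42 ± 0.08 (adjusted p = 0.000338). The estimate of Fgr thereby moved up from 0.20. Syk turned from 0.25 to -0.04 ± 0.06 (SE; adjusted p = 0.786), and Ezr went to 0.06 ± 0.08 (0.752) and Rac2 to 0.10 ± 0.07 (0.419). The uncalled gene Coro1a turned from 0.16 to -0.23 ± 0.13. Rac1 (-0.09 ± 0.06; adjusted p = 0.411), Arpc1b (-0.14 ± 0.07; 0.258), Arpc4 (-0.09 ± 0.07; 0.564), Arpc5 (-0.06 ± 0.06; 0.623) and Was (-0.21 ± 0.11; 0.238) kept a negative sign without a call. The rhythm calls in young cells stayed at 2 members with these covariates. The covariates also widen the errors, from a median SE of 0.0552 to 0.0793 over the members and from 0.0903 to 0.136 over all genes, and over all genes 1062 of the 2865 calls were kept, or 37.1%.

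**Figure D4:**
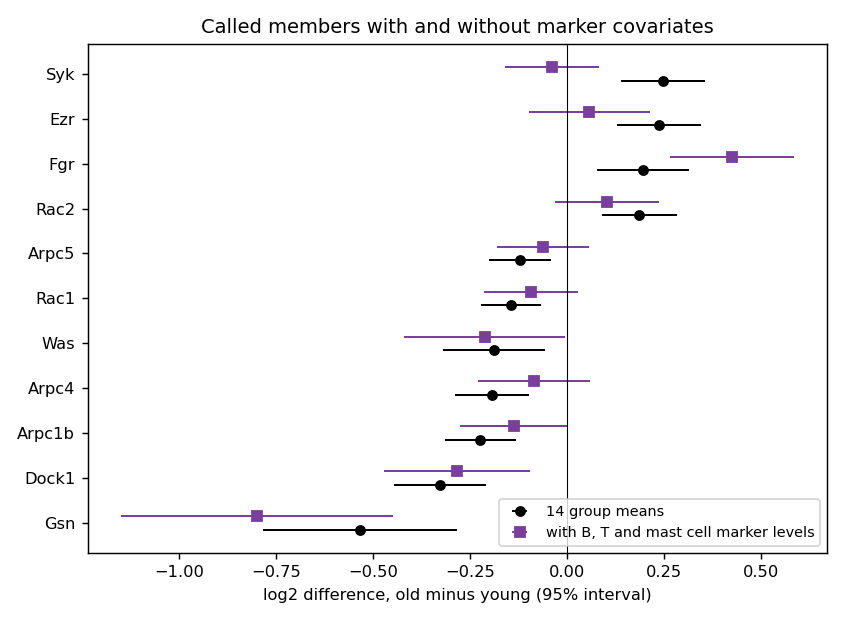
Log2 difference of old minus young for the 11 called members from the 14 group means (circles) and with B, T and mast cell marker levels as covariates (squares), each with its 95% interval. Fgr, Dock1 and Gsn kept an adjusted p under 0.05, Syk moves from 0.25 to -0.04, and the squares have the wider intervals.

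The next comparison asked whether the members follow a 24 h rhythm. In young cells limma's moderated F-test called 2 of 35, Gsn and Ezr, beside 3.62% of 12113 genes. At an unadjusted p under 0.05 there were 7 members (20%), beside 17.2% of all genes. The fitted amplitudes of the members were small, with a median of 0.08 on the log2 scale in young cells against 0.14 over all genes. A fitted amplitude is never negative and grows with the spread between libraries. That spread was smaller for the members (median SD 0.153 against 0.269), so the 2 medians do not compare the strength of rhythms.

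Gsn cycled in young macrophages with a high plateau between ZT8 and ZT16. Its rescaled reads by library were 251, 171 and 263 at ZT0, 271, 191 and 317 at ZT4, 337, 452 and 425 at ZT8 and 397, 474 and 388 at ZT12. They were 490, 386 and 396 at ZT16, 281, 370 and 333 at ZT20 and 267, 452 and 283 at ZT24. All 9 libraries of ZT8, ZT12 and ZT16 lay above all 6 of ZT0 and ZT4, while ZT24 replicate 2, at 452, lay among the 9. These times were picked from the same values, so the split describes the profile and adds no support to the call. Its peak was fitted at ZT 13.2 ± 0.879 (SE), and the peak-to-trough fold was 1.72 (limma, adjusted p = 0.0115). The call needed the ZT0 libraries, without which the adjusted p was 0.0902. ZT0 and ZT24, the same clock phase, were at 228 ± 50.2 and 334 ± 103 (SD, n = 3 each).

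Ezr ran in another phase. In rescaled reads its young libraries were at 1778, 1800 and 1620 at ZT0, 1311, 1231 and 1397 at ZT4, 1546, 1354 and 1255 at ZT8 and 1380, 1477 and 1615 at ZT12. They were at 1859, 1915 and 1832 at ZT16, 1861, 1580 and 1545 at ZT20 and 1685, 2208 and 1775 at ZT24. The 3 libraries of ZT16 lay above all 9 of ZT4, ZT8 and ZT12, times that were again picked from these values. The fitted peak of Ezr fell at ZT 19.4 ± 0.747 (SE), its fold being 1.39 (limma, adjusted p = 0.0148), and the call was lost without the ZT8 libraries (0.0779).

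The upstream windows of the pair called rhythmic in young cells are given in the same form and with the same capitals as above. Gsn has 3 RefSeq starts, and reads at the 3′ end do not tell them apart, so all 3 windows are shown: chr2:35256109-35256358, chr2:35266494-35266743 and chr2:35282130-35282379, all on the plus strand. The Ezr window is chr17:6782781-6783030 on the minus strand.
Gsn start 1: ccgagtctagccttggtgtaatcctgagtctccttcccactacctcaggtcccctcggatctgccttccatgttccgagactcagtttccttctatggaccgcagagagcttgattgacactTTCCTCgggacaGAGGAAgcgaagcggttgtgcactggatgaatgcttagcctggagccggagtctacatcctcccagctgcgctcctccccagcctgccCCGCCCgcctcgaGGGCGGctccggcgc
Gsn start 2: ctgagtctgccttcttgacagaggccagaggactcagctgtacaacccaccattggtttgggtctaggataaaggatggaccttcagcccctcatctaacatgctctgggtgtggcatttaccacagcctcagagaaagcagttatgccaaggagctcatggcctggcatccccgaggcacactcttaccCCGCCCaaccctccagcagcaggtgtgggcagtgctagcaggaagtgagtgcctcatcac
Gsn start 3: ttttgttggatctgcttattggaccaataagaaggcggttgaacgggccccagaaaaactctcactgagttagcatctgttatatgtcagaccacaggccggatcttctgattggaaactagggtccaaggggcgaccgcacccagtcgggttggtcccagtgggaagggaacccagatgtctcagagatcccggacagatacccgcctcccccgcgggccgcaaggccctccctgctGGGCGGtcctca
Ezr: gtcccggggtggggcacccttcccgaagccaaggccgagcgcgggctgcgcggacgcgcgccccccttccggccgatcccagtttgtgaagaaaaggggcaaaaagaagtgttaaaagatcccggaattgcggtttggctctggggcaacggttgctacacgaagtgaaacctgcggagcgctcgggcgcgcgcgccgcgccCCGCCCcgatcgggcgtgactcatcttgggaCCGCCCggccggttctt
None of these 4 windows held a match to the E-box, the D-box or the AGGTCA motif, which says only that these letters are not in these windows. The first Gsn window held 2 ETS sites and 2 GC boxes, the other Gsn windows 1 GC box each, and the Ezr window 2 GC boxes.

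The other 5 members at an unadjusted p under 0.05 in young cells were Myo1f (fold 1.23, peak at ZT 17.6 ± 1.03, SE; limma, adjusted p = 0.126), Pfn1 (1.46, ZT 18.03 ± 1.08; 0.154), Arpc2 (1.17, ZT 8.65 ± 1.30; 0.202), Fgr (1.21, ZT 13.5 ± 1.55; 0.249) and Was (1.24, ZT 13.01 ± 1.65; 0.285). None of these 5 passed the threshold over all genes. The fitted fold of Actb was 1.06 in young macrophages (limma, adjusted p = 0.843) and Actg1 one of 1.69 with an amplitude of 0.38 ± 0.27 (SE, log2; adjusted p = 0.683), a wide error at its low counts.

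In old cells limma called 0 of the 35, beside 0.308% of 12016 genes, and so did edgeR and DESeq2 on the recovered reads. At an unadjusted p under 0.05 there was 1 member (2.86%), beside 9.01% of all genes. This was Elmo1, with a fold of 1.41 and a peak at ZT 20.03 ± 0.985 (SE; limma, adjusted p = 0.284). Gsn in old cells had group means between 204 ± 43.5 at ZT12 and 315 ± 231 at ZT16 (SD, n = 3 each), and its ZT16 libraries were at 577, 144 and 223 rescaled reads. Ezr in old cells lay between 1651 ± 259 at ZT4 and 2218 ± 247 at ZT24.

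A call in young cells and none in old cells does not show that the rhythms differ. The difference was tested with limma's F-test on the interaction of age with the cosine and sine, which called 0 of 35 members and 0% of 12109 genes. At an unadjusted p under 0.05 it gave 0 members and 494 genes. EdgeR called 0 members and 4 genes, and DESeq2 0 members and 7 genes. The lowest p of a member was that of Gsn (0.0747, limma adjusted p = 0.999), with a fitted log2 amplitude of 0.39 in young and 0.02 in old cells. Was came next (limma, unadjusted p = 0.0998, adjusted p = 0.999), with amplitudes of 0.15 and 0.12. The test covers the time of the peak as well as the amplitude. Fitted within each age, Was peaked at ZT 13.01 ± 1.65 in young and ZT 6.35 ± 2.04 (SE) in old cells, with a rhythm called in neither.

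**Figure D5:**
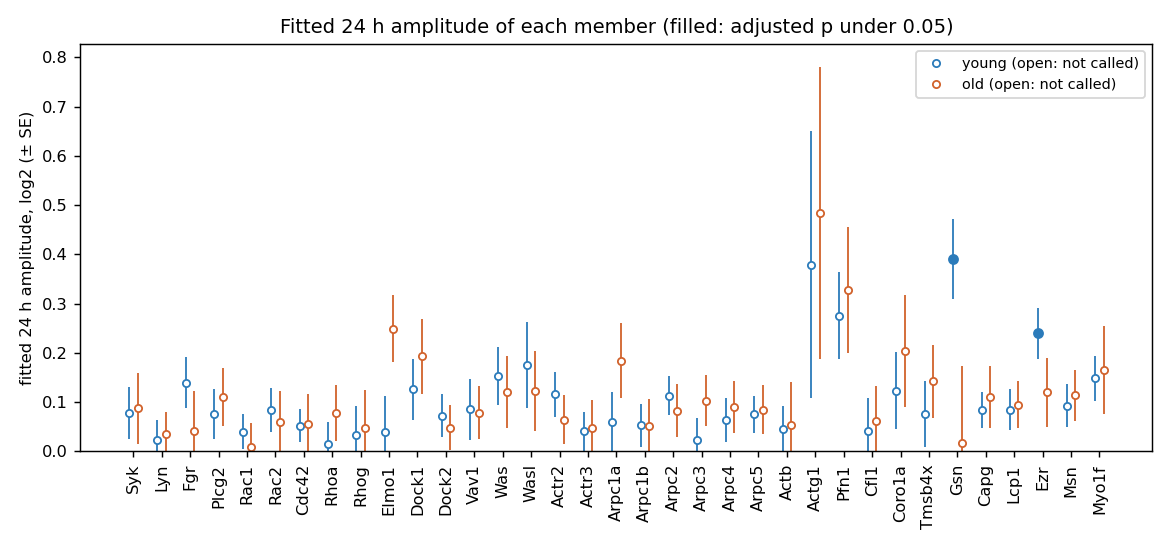
Fitted 24 h amplitude (log2, from mean to peak) of each of the 35 members in young and old cells with its SE, in the order of their roles; filled points passed an adjusted p of 0.05. Gsn (0.39) and Ezr (0.24) in young cells are the filled points, and the SE of Actg1 is the widest.

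The wider pathway was read from 134 further genes in 5 lists. Limma called 39 of the 124 that could be tested for level, or 31.5%, with 24 higher and 15 lower in old cells, beside 23.7% of all genes (12% higher and 11.7% lower). Regardless of sign, their median log2 difference was 0.11, against 0.13 over all genes. Among 23 genes of proximal kinases and adaptors 5 were higher and 0 lower. The phospholipase gene Plcg1 rose from 204 ± 43.7 to 271 ± 75.3 rescaled reads (SD, n = 21 each; log2 0.38 ± 0.10, SE; limma, adjusted p = 0.00334). The adaptor gene Lcp2 rose by 0.20 ± 0.06 (SE; limma, adjusted p = 0.00681) on the log2 scale.

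Among 27 GTPases and regulators 6 were higher and 4 lower. Dock5, a relative of Dock1, went the other way, from 662 ± 57.9 to 884 ± 172 rescaled reads (SD, n = 21 each; log2 0.40 ± 0.07, SE; limma, adjusted p = 1.59e-05). The contractility kinase gene Rock2 rose by 0.20 ± 0.04 (SE) on the log2 scale and Dock10 fell by 0.24. Of 24 nucleation promoters and formins 7 were higher and 0 lower. The 3 of lowest p were the cortactin gene Cttn (8.44 ± 6.62 to 35.1 ± 11.8 rescaled reads, SD, n = 21 each), Cyfip2 of the WAVE complex (log2 0.53 ± 0.10, SE) and Arpc5l, the alternative form of Arpc5. Cttn, counted among the 7 here and the 39 above, had a young mean below 10. It reached the filter only through the old libraries, so its direction was fixed by the filter. Arpc5l was higher by 0.27 ± 0.05 (SE; limma, adjusted p = 0.000284), against -0.12 for Arpc5. Of 31 genes of filament binding and turnover 3 were higher and 8 lower, with Aif1 (0.95 ± 0.17, SE) and Pls3 (0.95 ± 0.17) on the higher side and Coro1c (-0.23 ± 0.04) on the lower. Of 19 linkers and myosins 3 were higher and 3 lower, among them Myo1e (0.30 ± 0.07, SE), the radixin gene Rdx (-0.14 ± 0.04) and Myo1g (-0.13 ± 0.04).

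Of 123 wider genes tested for rhythm in young cells limma called 5, beside the 3.62% of all genes. They were the adaptor genes Lat2 (peak-to-trough fold 1.49, peak at ZT 12.2 ± 0.657, SE) and Lcp2 (1.35, ZT 1.72 ± 0.778), the GTPase gene Rhoc (1.54, ZT 14.4 ± 0.673), Elmo2 (1.44, ZT 2.11 ± 0.801) and the bundling protein gene Fscn1 (2.15, ZT 22.2 ± 0.897). In old cells limma called 0 of 123. At an unadjusted p under 0.05 there were 10 (8.13%), beside 9.01% of all genes.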

How the data were processed

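Total RNA of 42 libraries was read at transcript 3′ ends, per the labels. The authors deposited 1 table per age of normalized signal per gene. Reads were aligned to mm10 with STAR and normalized with DESeq2, per the submitters' processing notes. The counter, its strand setting, the annotation and all versions were not given in the sources used here. Each deposited column was a multiple of whole reads (100% of values within 0.001), which gave the counts behind the signal and the depths. Reads carry no molecular identifiers in the sources used here.

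Rhythms within an age were tested on the deposited values. For levels and for the difference of rhythms the recovered reads of both ages were rescaled together by median ratios ("rescaled reads"). Genes were tested where their mean reached 10, on log2(value + 1), a scale that understates the change of low genes, with limma 3.58.1 in R 4.3.3, Benjamini-Hochberg adjusted over all genes at 0.05. The level test compared the means of the 7 group means of each age, and rhythms were a cosine and sine of 24 h. Count tests with edgeR 4.0.16 and DESeq2 1.42.0 on the recovered reads called 2876 and 3055 genes for level, beside 2865 by limma. Scripts were tested on simulated data.

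Symbols and positions came from GENCODE M21 on GRCm38 (47224 of 47643 identifiers matched; 22533 genes were at 0 in every library). Promoter windows are RefSeq's, build GRCm38.p6. The members and lists were chosen with earlier results of these data known. Named with values were the called members of largest change, called rhythms, the 2 lowest p for the difference of rhythms, both actins, and per wider list the 3 lowest p for level and up to 2 called rhythms; 1 gene that this rule names is not reported here. Other scalings, filters, pseudocounts, thresholds, tools, time models, covariates, a replicate block and left-out libraries were tried.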

Additional observations from a re-analysis of the deposited data

How the results depend on the processing

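Leaving out 1 library at a time gave 2 to 2 members rhythmic in young cells, 0 to 0 in old cells, 0 to 0 with differing rhythms, 4 to 5 higher and 6 to 8 lower in old cells. In young cells the rhythmic members went from 2 to 0 at an adjusted p under 0.01, to 1 when ZT0 was left out and to 1 when ZT8 was left out. With B, T and mast cell marker covariates the members called for level went to 1 higher and 2 lower. Syk turned from a log2 difference of 0.246 (SE 0.0551) to -0.0393 (SE 0.0615), so its estimate moved and not only its error. The cause was not tested. The replicate numbers did not pair the samples: over 273 pairs with the same number the correlations of deviations ran from -0.26 to 0.19, and 11 of 42 libraries were closest to one of their own number. With the replicate block the counts of members were 2, 0, 0, 4 and 7, as without it. Over all genes, rhythmic genes in young cells were 438, against 737 by DESeq2, 236 with no filter and 257 without the ZT8 libraries; in old cells they were 37, against 91 by DESeq2. Leaving out the ZT8 libraries or the 3 libraries farthest from their groups (old ZT8 replicate 1, old ZT16 replicate 3 and old ZT0 replicate 2) was chosen after seeing the data. At its low counts Actg1 had an SE of 0.28 for the log2 difference.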

Other observations

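The 35 genes varied less between libraries than genes in general. On the log2 scale the within-group SD had a median of 0.153 in young and 0.188 in old cells over the members, beside 0.269 and 0.310 over all 12109 genes tested, which are mostly less abundant. Actg1, Pfn1, Coro1a and Gsn were above these all-gene medians in both ages. Pfn1 ran from 818 to 2573 rescaled reads in young and from 527 to 2595 in old libraries, and each lowest value was 1 library: without young ZT4 replicate 3 the lowest young value was 1448, and without old ZT8 replicate 1 the lowest old value was 1308. Its fitted peak fell at ZT 18.03 in young and ZT 18.2 in old cells, with peak-to-trough folds of 1.46 and 1.57 that passed the threshold in neither age (limma, adjusted p = 0.154 and 0.559). Tmsb4x ran from 34176 to 81911 rescaled reads in young libraries, where the highest was again ZT4 replicate 3 and the next was 59153, and from 33614 to 56968 in old ones. Young ZT4 replicate 3 also gave the highest young values of Arpc1a, Arpc1b, Cfl1 and Coro1a and the lowest of Rac1, Rac2, Dock1, Syk, Arpc4, Cdc42 and Actb. Its chi-square per gene against the other libraries of its group was 52.2 and 48.6, while the other young pairs within a group lay between 9.33 and 18.4. It set the lowest young values against which the old libraries of Rac1 and Dock1 were counted above. Without it 2 members stayed rhythmic in young cells, and 4 were called higher and 8 lower in old cells.

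Markers of other cells moved with age beside those of B cells. Dendritic cell markers summed to 308 to 635 rescaled reads in young and 139 to 429 in old libraries, and 3 of the 4 tested were lower. Eosinophil markers summed to 46.8 to 296 in young and 2.27 to 112 in old libraries, and mesothelial and fibroblast markers to 0 to 26.7 and 24.9 to 139. Their part in the members' differences was not tested.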
